A study of Homo sapiens with 13 samples.

Results

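The amino acid response is the set of genes that the transcription factor ATF4 switches on when cells run short of amino acids or are under other stress. It was followed here in SW480, a cell line established from a human colon cancer, during 6 h with the iron chelators DFO and Deferasirox or with the compound OICR623. The genes were a list of 39 symbols in 4 roles: 10 stress factors with ATF4 itself, 10 enzymes of serine and other amino acid synthesis, 6 amino acid transporters and 13 genes of transfer RNA charging. Of these, 38 were measured among 18404 genes in all. The row of CBS carries several gene symbols and was not used, so 9 synthesis genes remained. DDIT4 and VLDLR, which are often counted with ATF4 targets, were left out of the list.

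RNA was measured on 13 Affymetrix arrays whose probes lie along the whole transcript. The groups were the solvent DMSO at 0.1% (n = 4), DFO (n = 4), Deferasirox (n = 3) and OICR623 (n = 2), and the labels describe replicates as independent experiments. DFO, or deferoxamine, and Deferasirox are drugs that bind iron, and for OICR623 the labels give no more than a code name. The labels give the doses as 100 mM DFO, 50 mM Deferasirox and 10 mM OICR623. Whether another unit was meant cannot be told from the labels, and the compounds were not given at matched doses.

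As background, amino acid shortage, endoplasmic reticulum stress and other stresses act through kinases that phosphorylate the initiation factor eIF2. This lowers protein synthesis in general but raises translation of the ATF4 messenger RNA, so ATF4 protein can rise without a change in its transcript. ATF4, often with a C/EBP partner, binds C/EBP-ATF response elements near genes for amino acid synthesis, uptake and transfer RNA charging. The stress arm includes DDIT3 (CHOP), a factor linked to cell death, and PPP1R15A (GADD34), which directs the phosphatase that reverses eIF2 phosphorylation.

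The letters of that element, TGATGNAA, were searched on both strands in the RefSeq promoter windows of GRCh38.p14, which span 300 bases around each gene start, 50 of them after it. Windows were found for 32 of the 39 listed genes. The letters occurred in 11 of these 32 windows (34.4%) and in 3.67% of all 27305 windows. By role they were in 2 of 9 stress factors (ATF3 and CHAC1), 1 of 7 synthesis genes (ASNS), 2 of 5 transporters (SLC3A2 and SLC7A1) and 6 of 11 charging genes (AARS1, MARS1, NARS1, CARS1, IARS1 and TARS1). A match is a string of letters and not a shown binding site. The windows of ASNS, CHAC1 and SLC3A2 are shown for their matches, in capitals, and that of DDIT3, a stress factor of the same response, for comparison. They lie at chr7:97872359-97872658 (minus strand), chr15:40953221-40953520 (plus strand), chr11:62881449-62881748 (plus strand) and chr12:57520465-57520764 (minus strand).
ASNS: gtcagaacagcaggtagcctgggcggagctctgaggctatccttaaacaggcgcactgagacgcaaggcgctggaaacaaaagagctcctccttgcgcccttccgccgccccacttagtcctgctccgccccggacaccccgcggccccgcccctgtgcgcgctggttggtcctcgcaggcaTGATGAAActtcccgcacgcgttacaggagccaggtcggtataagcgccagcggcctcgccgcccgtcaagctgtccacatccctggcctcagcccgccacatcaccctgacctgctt
CHAC1: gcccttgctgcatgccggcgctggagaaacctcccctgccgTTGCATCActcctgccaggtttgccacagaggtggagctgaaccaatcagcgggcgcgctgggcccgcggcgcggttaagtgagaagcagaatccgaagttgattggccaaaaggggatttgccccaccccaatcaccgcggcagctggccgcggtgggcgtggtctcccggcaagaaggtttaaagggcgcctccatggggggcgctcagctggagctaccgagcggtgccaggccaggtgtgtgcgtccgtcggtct
SLC3A2: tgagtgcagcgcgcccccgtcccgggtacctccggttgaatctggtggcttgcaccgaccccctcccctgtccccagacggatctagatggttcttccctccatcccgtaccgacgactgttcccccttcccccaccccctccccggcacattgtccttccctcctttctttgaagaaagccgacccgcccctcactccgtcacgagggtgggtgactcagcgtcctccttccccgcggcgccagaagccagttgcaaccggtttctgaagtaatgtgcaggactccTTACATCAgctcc
DDIT3: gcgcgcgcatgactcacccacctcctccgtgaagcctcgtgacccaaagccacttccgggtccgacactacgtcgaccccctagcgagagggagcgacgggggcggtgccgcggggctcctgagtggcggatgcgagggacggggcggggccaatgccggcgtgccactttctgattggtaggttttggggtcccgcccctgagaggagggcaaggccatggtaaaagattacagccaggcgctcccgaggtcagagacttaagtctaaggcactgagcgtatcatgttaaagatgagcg
Counted from the gene start, the match in ASNS lies at -68 to -61 and reads along the gene's strand. The matches in CHAC1, at -209 to -202, and in SLC3A2, at 38 to 45, read on the opposite strand. The DDIT3 window holds no match, which says only that these letters are not in its 300 bases.

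Some facts of the arrays bear on every value. Ordered by size, the array medians left gaps wider than 0.05 at 2 places and so formed 3 levels: high (7.17 to 7.19; DMSO 1 and DFO 1), middle (6.64 to 6.69; 8 arrays, all 4 groups) and low (6.52 to 6.55; DMSO 4, DFO 4 and Deferasirox 3). The level was therefore a block in the limma fit. DMSO 1 and DFO 1 hold the same deposited value (within 1e-06) in 8531 of 32321 rows, or 26.4%. Other pairs of arrays share 86 to 107 rows within the low level and 5 to 36 within the middle level. Pairs of different levels share 0 or 1 row, so shared values went with the level, and the reason was not tested. The rows shared by DMSO 1 and DFO 1 include 9 of the 38 genes studied. These are ATF3, CEBPG, PSPH, SHMT2, ALDH1L2, SLC7A1, EPRS1, IARS1 and YARS1, so their DFO-minus-DMSO difference in the high level is 0. Results are thus also given without the high level, an alternative chosen after the data had been seen. The epithelial markers EPCAM, KRT8 and KRT18 had mean log2 signals of 9.64, 12.67 and 13.02. The other 5 of the 8 epithelial markers were at 8.79 (CDX2), 7.22 (CDX1), 7.0 (VIL1), 5.52 (CDH1) and 5.28 (KRT20). Markers of fibroblasts, endothelium and leukocytes lay between 3.32 (DCN) and 9.18 (CD68), so the levels of the 2 kinds of marker overlapped. No marker of those other cell types was called in any compound against DMSO. CDX2, an intestinal transcription factor, fell under DFO (-0.49, SE 0.08, adjusted p = 0.00634) and Deferasirox (-0.77, SE 0.09, adjusted p = 0.00068), and its part in the results was not tested. Without the high level its differences were -0.56 and -0.80.

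The 3 compounds moved a few genes of the response and left no call in most. STC2, a secreted stress glycoprotein, rose under DFO and Deferasirox, and the amino acid transporter gene SLC38A2 rose under all 3 compounds. CTH, which makes cysteine, fell under DFO and Deferasirox, and CEBPB was called higher and DDIT3 lower under DFO. ATF4 itself and all 13 charging genes had no call. Genes were called where limma's Benjamini-Hochberg adjusted p, taken over all 18404 genes, was under 0.05. Under DFO, 5 of 38 genes were called (13.2%), 3 higher and 2 lower, beside 4.6% of all 18404 genes (1.89% higher and 2.72% lower). For Deferasirox the count was 3 of 38 (7.89%), 2 higher and 1 lower, beside 5.84% of all genes (2.83% higher and 3.0% lower). In OICR623 it was 1 of 38 (2.63%), higher, beside 0.734% of all genes (0.337% higher and 0.397% lower). The differences of all 38 genes with their intervals show these few points apart from the rest.

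**Figure D1:**
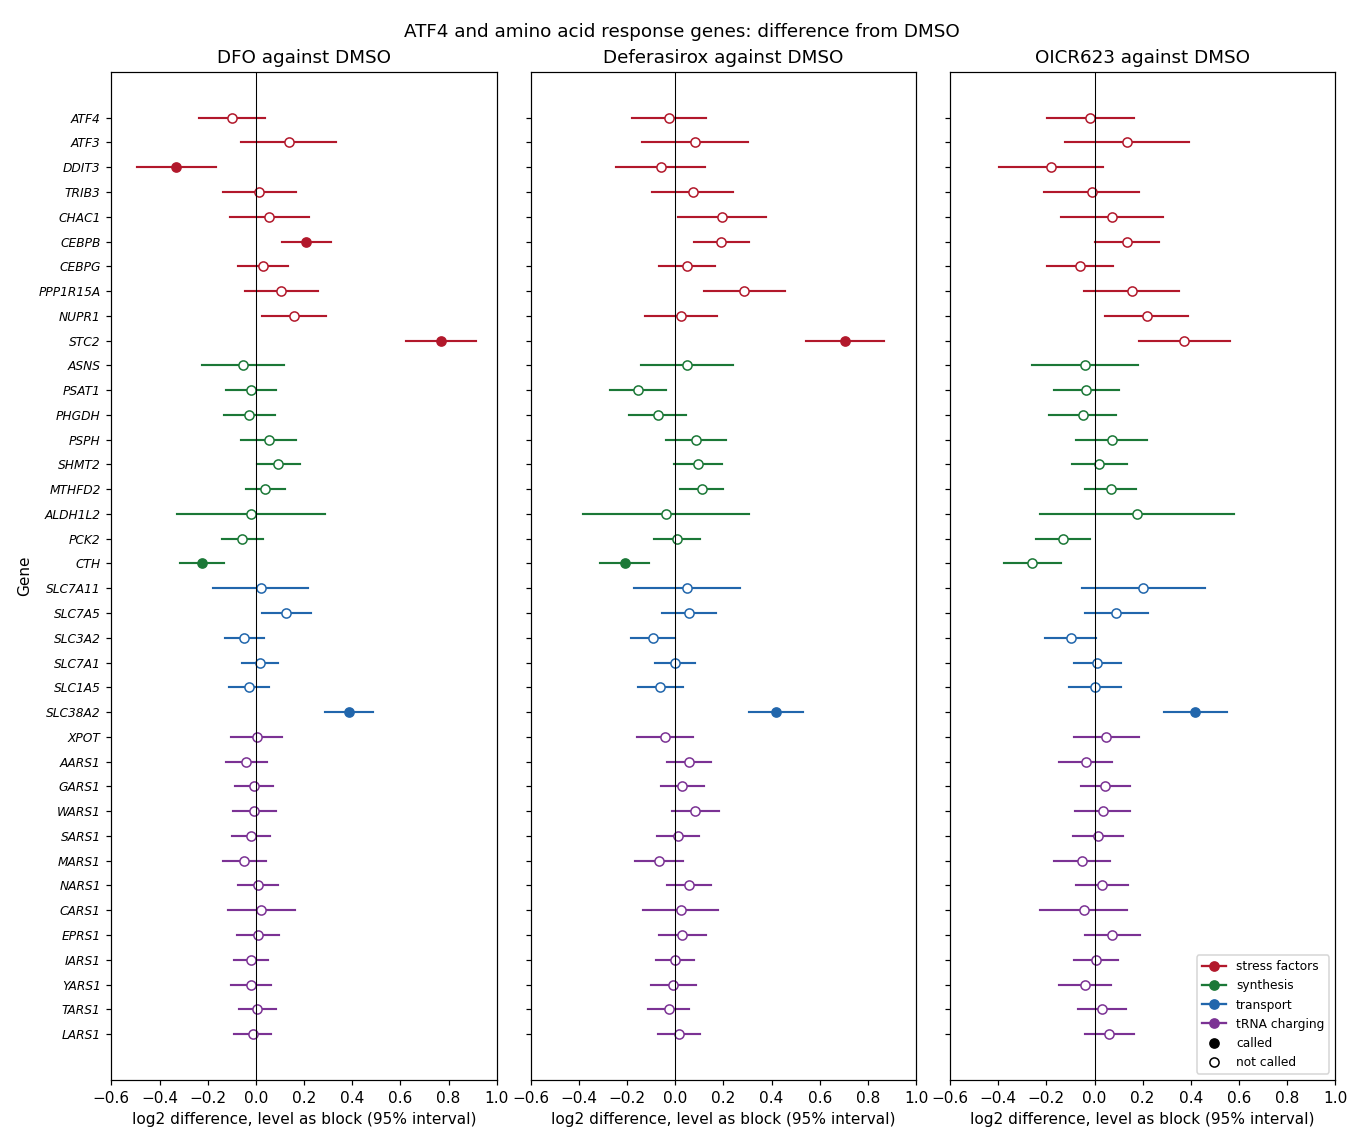
Difference from DMSO on the log2 scale for each of the 38 genes (rows, coloured by role) under DFO, Deferasirox and OICR623, fitted with level as a block; lines are 95% intervals and filled points are called genes. STC2 at 0.77 and 0.70 and SLC38A2 at 0.39, 0.42 and 0.42 lie to the right, CTH at -0.22, -0.21 and -0.26 to the left, and the charging genes stay within -0.07 and 0.08.

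Without the high level the counts were 4, 5 and 2 of 38, beside 4.18%, 5.36% and 0.94% of all genes. DDIT3 lost its call under DFO. CEBPB (0.21, adjusted p = 0.0349) and PPP1R15A (0.32, adjusted p = 0.0309) gained one under Deferasirox, and STC2 (0.41, adjusted p = 0.0272) gained one under OICR623. The median difference of the 38 genes was 0.004, 0.026 and 0.026 under DFO, Deferasirox and OICR623, beside 0.002, 0.0022 and 0.0035 over all genes. The median absolute difference was 0.034, 0.057 and 0.056, beside 0.0525, 0.0613 and 0.0605 over all genes. The middle of the whole list was thus near that of all genes. In the fit of all arrays, 2 of the 10 stress factors were called higher and 1 lower under DFO (30.0%). For Deferasirox 1 was called higher (10.0%) and for OICR623 0, beside 4.6%, 5.84% and 0.734% of all genes. The median difference of these 10 was 0.081, 0.077 and 0.103, with 8, 8 and 6 above 0. An unadjusted limma p under 0.05 was reached by 4, 4 and 3 of them and by 8, 9 and 6 of all 38. Whether this role differed from the others was not tested. The 3 comparisons share the DMSO arrays, so that likeness between them is in part fixed by the controls.

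Among the stress factors, ATF4 stayed without a call. Its log2 signals were 10.97, 10.33, 10.27 and 9.93 in DMSO 1 to 4 and 10.71, 10.27, 10.09 and 10.04 in DFO 1 to 4. They were 10.23, 10.26 and 10.04 in Deferasirox 1 to 3 and 10.20 and 10.34 in OICR623 1 and 2. The ranges of the groups overlapped, with the arrays of the high level above all others, and in the middle level both Deferasirox arrays lay just below those of DMSO. The difference from DMSO was -0.10 (SE 0.06, 95% interval -0.24 to 0.04, adjusted p = 0.526) under DFO. For Deferasirox it was -0.03 (SE 0.07, interval -0.18 to 0.13, adjusted p = 0.909) and for OICR623 -0.02 (SE 0.08, interval -0.20 to 0.16, adjusted p = 0.972). Within the levels the sign under DFO varied, with -0.25, -0.12 and 0.10 in the high, middle and low level. These arrays measure the transcript and not ATF4 protein.

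STC2 had the largest difference of the 38 genes under DFO and Deferasirox, while under OICR623 that of SLC38A2 was larger. Its signals were 9.52, 8.38, 8.29 and 8.47 in DMSO 1 to 4 and 10.04, 9.21, 9.06 and 9.41 in DFO 1 to 4. In Deferasirox 1 to 3 they were 9.03, 9.04 and 9.30, and in OICR623 8.78 and 8.66. Within each level every treated array lay above every DMSO array, although DMSO 1 lay above every treated array of the other levels. STC2 rose by 0.77 under DFO (SE 0.07, 1.70-fold, adjusted p = 4.89e-05) and by 0.70 under Deferasirox (SE 0.07, 1.63-fold, adjusted p = 0.000231). Under OICR623 the difference was 0.37 (SE 0.09, interval 0.18 to 0.56, adjusted p = 0.0977), past the threshold only without DMSO 1 (0.41, adjusted p = 0.0272) or with trended and robust moderation. The DFO difference was smallest in the high level, at 0.52, against 0.80 in the middle and 0.95 in the low level. STC2 is also known as a gene that low oxygen induces.

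DDIT3, the factor CHOP, was called lower under DFO. Its signals were 8.79, 8.34, 8.07 and 8.04 in DMSO 1 to 4 and 8.53, 7.80, 7.83 and 7.77 in DFO 1 to 4. In Deferasirox 1 to 3 they were 8.17, 8.28 and 7.80, and in OICR623 8.07 and 7.99. Each DFO array lay below the DMSO arrays of its own level, while Deferasirox arrays of the middle level lay among those of DMSO. DDIT3 fell by 0.33 under DFO (SE 0.07, interval -0.50 to -0.17, adjusted p = 0.0296). The call was lost without the high level or either of its arrays (-0.35, adjusted p = 0.0667). It was also lost without DMSO 2 (adjusted p = 0.0924), DFO 2 (0.0968), DFO 3 (0.0952) or DMSO 4 (0.129). The difference was -0.06 under Deferasirox (interval -0.24 to 0.12) and -0.18 under OICR623 (interval -0.40 to 0.03). DDIT3 is known as a gene that ATF4 induces.

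CEBPB, a C/EBP factor that can pair with ATF4, rose by 0.21 under DFO (SE 0.05, 1.16-fold, adjusted p = 0.0269). Its signals were 9.41, 8.81, 8.78 and 8.61 in DMSO 1 to 4 and 9.48, 8.99, 9.02 and 8.95 in DFO 1 to 4. The DFO array was higher in each level, by 0.08, 0.21 and 0.34 from the high to the low level. The call was lost without any 1 of DMSO 2, DMSO 3, DMSO 4, DFO 2, DFO 3 and DFO 4 (adjusted p = 0.0579 to 0.122) and kept without DMSO 1 or DFO 1 (adjusted p = 0.018). It was also lost with the replicate number as a block over the 8 DFO and DMSO arrays (adjusted p = 0.0924). Under Deferasirox the difference was 0.19 (SE 0.05, adjusted p = 0.0593) and under OICR623 0.13 (SE 0.06, adjusted p = 0.468). PPP1R15A stood close to the threshold under Deferasirox, at 0.29 (SE 0.08, adjusted p = 0.056).

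The classic stress targets ATF3, TRIB3 and CHAC1 had no call. ATF3, an early stress factor, had signals of 7.21, 6.20, 6.37 and 6.29 in DMSO, 7.21, 6.22, 6.59 and 6.59 in DFO, 6.32, 6.37 and 6.48 in Deferasirox, and 6.26 and 6.55 in OICR623. The values of DMSO 1 and DFO 1 are the same here, and the groups overlap. Outside the high level ATF3 signals lay between 6.20 and 6.59, near the array medians of 6.52 to 6.69. Markers of other cell types such as CD14 (mean 6.2) and COL1A2 (mean 6.54) were in that range. TRIB3, a pseudokinase that feeds back on the response, had 8.94, 8.35, 8.44 and 8.21 in DMSO, 8.95, 8.34, 8.53 and 8.17 in DFO, 8.34, 8.62 and 8.26 in Deferasirox, and 8.30 and 8.49 in OICR623. CHAC1, which degrades glutathione, had 8.16, 7.05, 7.25 and 7.0 in DMSO, 8.24, 7.16, 7.23 and 7.06 in DFO, 7.25, 7.48 and 7.14 in Deferasirox, and 7.08 and 7.37 in OICR623. In both genes the arrays of the high level stood above all others, and each compound overlapped with DMSO within the middle level. Their differences from DMSO were 0.14, 0.08 and 0.13 for ATF3 under DFO, Deferasirox and OICR623, 0.01, 0.07 and -0.01 for TRIB3, and 0.06, 0.19 and 0.07 for CHAC1. Of the 95% intervals of these 3 genes, the highest bound was 0.39, for ATF3 under OICR623. CEBPG and NUPR1, further factors of this role, had no call either, with NUPR1 at 0.16, 0.02 and 0.22 and CEBPG at 0.03, 0.05 and -0.06. Outside the high level NUPR1 signals lay between 5.93 and 6.38, below the lowest array median of 6.52. Without detection calls it cannot be told whether ATF3 and NUPR1 were expressed.

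**Figure D2:**
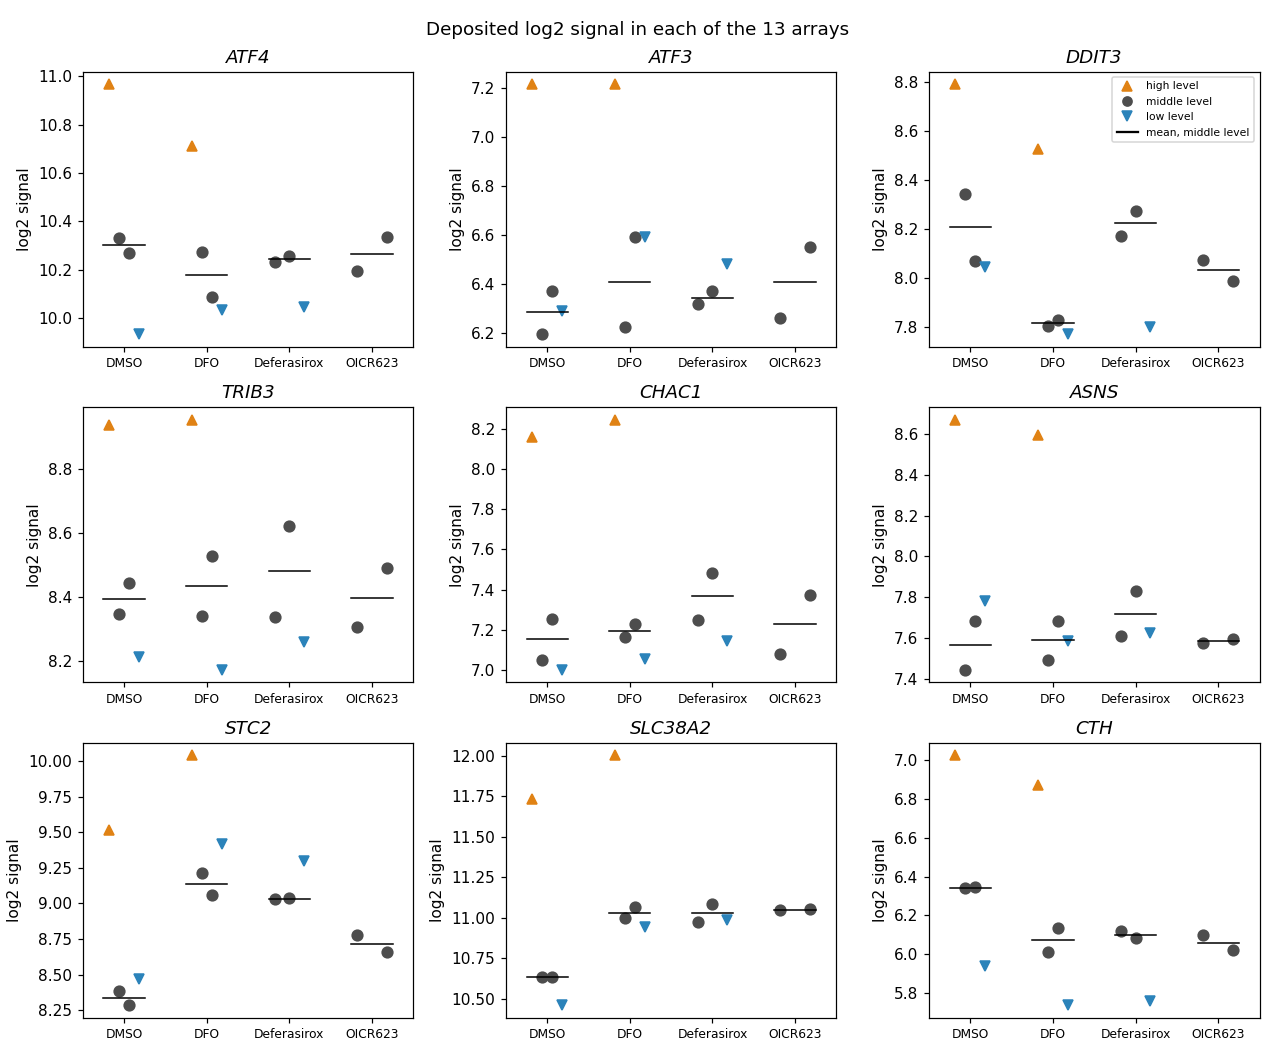
Deposited log2 signal (vertical axis) of 9 genes in each of the 13 arrays, by group; symbols mark the array-median level and bars the mean of the middle level. For ATF3, TRIB3, CHAC1 and ASNS each compound overlaps with DMSO within the middle level, while STC2 and SLC38A2 lie above DMSO and CTH below it in every treated array of that level.

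The plot of signals by array shows that the 2 arrays of the high level sat above the others for each gene drawn, whatever the treatment, and that the treated arrays of STC2, SLC38A2 and CTH separated from DMSO only once arrays of 1 level were set side by side.

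In amino acid synthesis, CTH was the gene that moved. CTH, cystathionine gamma-lyase, releases cysteine in the transsulfuration pathway. Its signals were 7.03, 6.34, 6.35 and 5.94 in DMSO 1 to 4 and 6.87, 6.01, 6.13 and 5.74 in DFO 1 to 4. In Deferasirox 1 to 3 they were 6.12, 6.08 and 5.76, and in OICR623 6.10 and 6.02. Every treated array lay below every DMSO array of its level. Outside the high level all CTH signals lay below the lowest array median, 6.52, in the range of markers of other cell types such as CD14 (mean 6.2). CTH fell by 0.22 under DFO (SE 0.04, adjusted p = 0.00918) and by 0.21 under Deferasirox (SE 0.05, adjusted p = 0.0215). Under OICR623 the difference was -0.26 (SE 0.05, interval -0.38 to -0.14, adjusted p = 0.0623). The Deferasirox call was lost without any 1 of DMSO 2, DMSO 3, DMSO 4 and Deferasirox 1, 2 and 3 (adjusted p = 0.0629 to 0.0855). It was kept without DMSO 1 (-0.22, adjusted p = 0.027).

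ASNS, which makes asparagine and is a standard readout of ATF4, was not called. Its signals were 8.67, 7.44, 7.68 and 7.78 in DMSO, 8.60, 7.49, 7.68 and 7.59 in DFO, 7.61, 7.83 and 7.62 in Deferasirox, and 7.58 and 7.59 in OICR623. The groups overlapped within the middle level. The difference was -0.05 (interval -0.22 to 0.12), 0.05 (interval -0.14 to 0.24) and -0.04 (interval -0.26 to 0.18) under DFO, Deferasirox and OICR623. The serine synthesis enzymes had differences of -0.03, -0.07 and -0.05 for PHGDH, of -0.02, -0.16 and -0.03 for PSAT1 and of 0.05, 0.09 and 0.07 for PSPH. None of them was called, nor were the mitochondrial folate enzymes SHMT2, MTHFD2 and ALDH1L2 or the mitochondrial carboxykinase PCK2. ALDH1L2 was the least precise of the list, with an SE of 0.14 under DFO and an interval of -0.22 to 0.58 under OICR623. Its group means ran from 4.386 in Deferasirox to 4.795 in DMSO, below the lowest array median of 6.52, so whether it was expressed cannot be told. MTHFD2 was at 0.04, 0.11 and 0.07, and PCK2 at -0.06, 0.01 and -0.13. SHMT2, with identical values in the high level, was at 0.12, 0.11 and 0.04 without that level (adjusted p = 0.205, 0.239 and 0.902). In the middle and low levels its DFO and Deferasirox arrays lay above those of DMSO, and in OICR623 they overlapped.

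Among the transporters, SLC38A2 rose under every compound. It encodes SNAT2, a sodium-coupled carrier of neutral amino acids that cells raise when amino acids are scarce. Its signals were 11.74, 10.64, 10.64 and 10.46 in DMSO 1 to 4 and 12.00, 11.00, 11.06 and 10.94 in DFO 1 to 4. In Deferasirox 1 to 3 they were 10.97, 11.08 and 10.99, and both OICR623 arrays were at 11.05. Every treated array lay above every DMSO array of its level. The rise was 0.39 under DFO (SE 0.05, 1.31-fold, adjusted p = 0.00049) and 0.42 under Deferasirox (SE 0.05, 1.34-fold, adjusted p = 0.000642). Under OICR623 it was 0.42 (SE 0.06, 1.34-fold, adjusted p = 0.00856). The OICR623 call was lost without OICR623 1 (adjusted p = 0.0866) or OICR623 2 (adjusted p = 0.0773), with the size at 0.42 in each case.

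The other 5 transporters had no call in any of the 3 comparisons, though SLC7A5 was called higher under DFO with trended and robust moderation. SLC7A11, the cystine carrier of system xc-, was at 0.02, 0.05 and 0.20 (SE 0.09, 0.10 and 0.12) under DFO, Deferasirox and OICR623. Its mean log2 signal of 4.24 was the lowest of the 38 genes and lay below the lowest array median, 6.52. Without detection calls it cannot be told whether SLC7A11 was expressed. SLC7A5, the light chain of the large neutral amino acid carrier LAT1, was at 0.13, 0.06 and 0.09, and its heavy chain SLC3A2 at -0.05, -0.09 and -0.10. The cationic carrier SLC7A1 was within 0.02 of DMSO throughout, and the glutamine carrier SLC1A5 was at -0.03, -0.06 and 0.00. SLC38A2 was thus the 1 gene called of the 6 carriers, and whether it differed from the others was not tested.

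**Figure D3:**
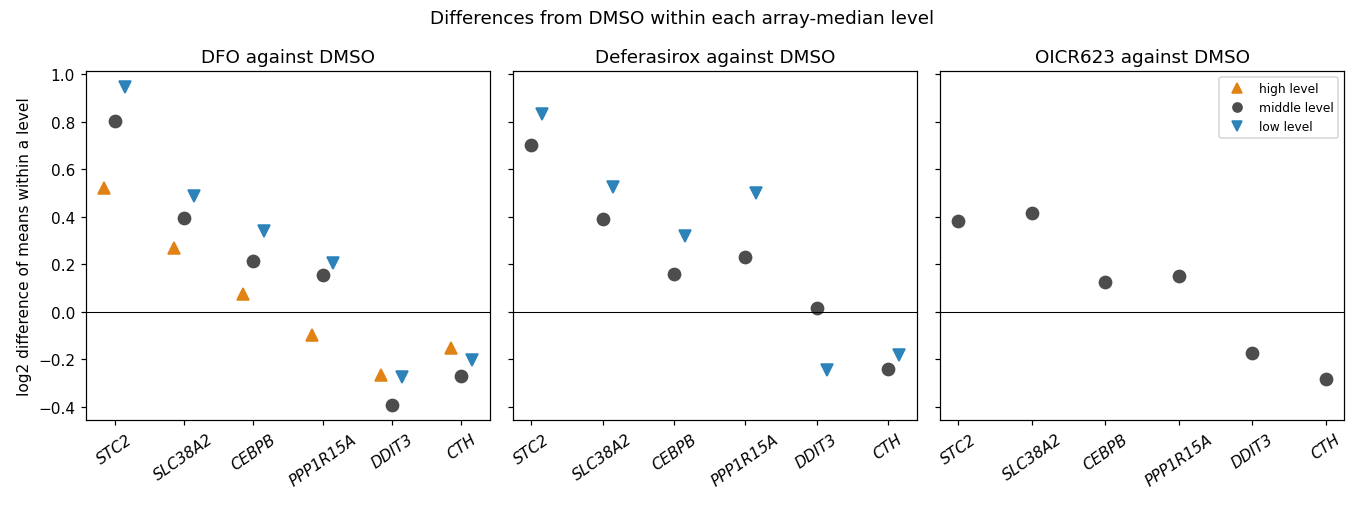
Difference of group means between compound and DMSO within each array-median level (log2, vertical axis) for 6 genes; symbols mark the level, and OICR623 has arrays in the middle level alone. STC2, SLC38A2 and CEBPB lie above 0 and CTH below 0 in every level, while PPP1R15A under DFO and DDIT3 under Deferasirox change sign between levels.

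The plot of differences within levels gives the values behind the block. For SLC38A2 under DFO they were 0.27, 0.40 and 0.49 in the high, middle and low level, and for CTH -0.15, -0.27 and -0.20. PPP1R15A was at -0.10 in the high level and at 0.16 and 0.21 in the others, and DDIT3 under Deferasirox was at 0.02 in the middle and -0.25 in the low level. The differences of STC2, SLC38A2 and CEBPB under DFO were smallest in the high level, where DMSO 1 and DFO 1 share many identical values, whose part in these sizes was not tested.

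The 13 genes of transfer RNA charging had the narrowest range of differences of the 4 roles. They are XPOT, which exports transfer RNA from the nucleus, and 12 synthetases, which load amino acids onto transfer RNA. None was called by limma under any compound, and 0 reached an unadjusted p under 0.05. Their differences ran from -0.05 to 0.02 under DFO, from -0.07 to 0.08 under Deferasirox and from -0.05 to 0.07 under OICR623. All 13 intervals lay within 0.25 of 0 in each comparison, between -0.14 and 0.16, -0.17 and 0.18, and -0.23 and 0.19. The group means of these 13 genes ran from 7.88 to 12.13, above every array median. Their SEs were 0.032 to 0.063 under DFO, beside a median of 0.055 over all genes. Over all genes, which were not matched for signal, the share of intervals within 0.25 of 0 was 74.6%, 65.0% and 57.7%. Of all 38 genes studied, 29, 28 and 26 had such intervals. Outside the list, so did all 8 genes listed with other cytosolic synthetases in each comparison, and 15, 15 and 14 of 15 genes upstream of ATF4. For AARS1, the alanine enzyme, the values were -0.04, 0.06 and -0.04, and for WARS1, the tryptophan enzyme, -0.01, 0.08 and 0.03. MARS1, the methionine enzyme, was at -0.05, -0.07 and -0.05.

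Calls were also counted by the promoter letters shown above. Of the 11 genes with TGATGNAA in the window, 0 were called in any compound against DMSO, and their differences lay between -0.05 and 0.14 under DFO, -0.09 and 0.19 under Deferasirox, and -0.10 and 0.14 under OICR623. With 4.6%, 5.84% and 0.734% of all genes called, a count of 0 among 11 is near the share of all genes. The 5 genes called under DFO were among the 20 measured genes whose windows lack these letters, and these 20 are most of the measured genes with a window. Sequence outside the 300 bases was not searched, so an element elsewhere in these genes would not be seen. The core of the hypoxia response element, ACGTG or GCGTG on either strand, was in 25 of 32 windows (78.1%) and in 48.4% of all windows. A CACGTG holds it on both strands. Of 24 measured genes with it, 4 were called under DFO, 2 under Deferasirox and 0 under OICR623. Of 7 without it, 1 was called under each compound, the transporter SLC38A2. These counts stand beside the same shares of all genes.

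No gene of the 38 was called between compounds, whose doses differed. Beside these 0 calls, 0.0435% of all genes were called for Deferasirox against DFO, 0.168% for OICR623 against DFO and 0.0869% for OICR623 against Deferasirox, and 4, 1 and 3 of the 38 had an unadjusted p under 0.05. The STC2 level under OICR623 was below that under DFO by a log2 difference of -0.40 (interval -0.58 to -0.21, adjusted p = 0.204) and below that under Deferasirox by -0.33 (interval -0.52 to -0.14, adjusted p = 0.271). With trended and robust moderation 1 gene was called for OICR623 against DFO, lower. For SLC38A2 the intervals of the 3 differences between compounds ran from -0.13 to 0.16, and for CTH from -0.17 to 0.11. DDIT3 was 0.27 higher under Deferasirox than under DFO (interval 0.09 to 0.45, adjusted p = 0.283).

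Related genes outside the 39, in 6 lists, give the setting. None of 15 genes upstream of ATF4, among them the 4 eIF2 kinases EIF2AK1 to EIF2AK4 and the subunits of eIF2 and eIF2B, was called, with differences between -0.11 and 0.13 over the 3 compounds and an unadjusted p under 0.05 for 1, 1 and 0 of them. Of 15 other genes of amino acid and folate metabolism, GOT1, an aspartate aminotransferase, fell under DFO (-0.14, adjusted p = 0.0444), and GLUL, glutamine synthetase, rose under Deferasirox (0.23, adjusted p = 0.0214). None of these 15 was called under OICR623, where 2 had an unadjusted p under 0.05. Of 13 other amino acid transporters, 0 were called under DFO and OICR623 (6 and 3 with an unadjusted p under 0.05), while 5 were under Deferasirox. SLC6A6, the taurine carrier, rose by 0.53 (adjusted p = 0.00223). SLC7A8, SLC7A6, SLC36A1 and SLC43A1 fell, with differences of -0.35, -0.24, -0.19 and -0.21.

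None of 8 genes listed with other cytosolic synthetases, among them AIMP1, which is not itself a synthetase, was called. Of 16 mitochondrial synthetases MARS2 alone fell, under DFO (-0.31, adjusted p = 0.019) and Deferasirox (-0.34, adjusted p = 0.0201). Of 14 further genes that ATF4 is known to act on, GDF15, a secreted stress cytokine, rose under DFO by 0.79 (SE 0.09, adjusted p = 0.00031). HERPUD1, a part of endoplasmic reticulum protein disposal, rose by 0.32 under DFO (adjusted p = 0.00711) and by 0.75 under Deferasirox (adjusted p = 5.72e-05). GADD45A, a growth arrest gene, fell under both (-0.23, adjusted p = 0.0246, and -0.24, adjusted p = 0.0349). In all, 5 of the 81 measured genes of these lists were called under DFO (6.17%), 9 under Deferasirox (11.1%) and 0 under OICR623, where 11 had an unadjusted p under 0.05. The shares of all genes called were 4.6%, 5.84% and 0.734%. Without the high level the counts were 5, 9 and 0. All 9 genes called under Deferasirox kept their call, while under DFO GOT1 (adjusted p = 0.155) and MARS2 (adjusted p = 0.0527) lost it and GLUL (0.19, adjusted p = 0.0485) and SLC6A6 (0.33, adjusted p = 0.0303) gained one.

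**Figure D4:**
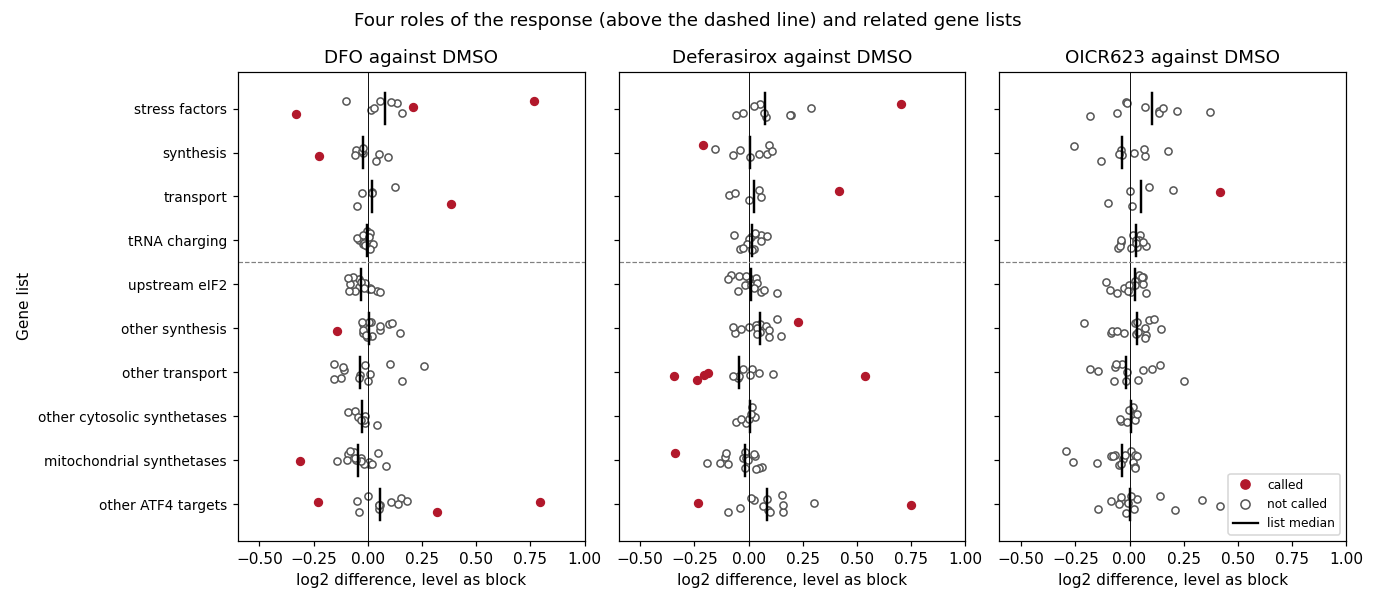
Difference from DMSO (log2, horizontal axis) of every measured gene in the 4 roles, above the dashed line, and in 6 related lists below it; filled points are called genes and upright bars list medians. The highest median of the 4 roles is 0.10, for the stress factors under OICR623, and called genes are single points at the edges, such as STC2 at 0.77 and HERPUD1 at 0.75.

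The plot of lists shows the median of the stress factors at 0.08, 0.08 and 0.10 under DFO, Deferasirox and OICR623, and that of the charging genes at -0.01, 0.02 and 0.03.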

How the data were processed

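RNA of 13 samples had been hybridised to Affymetrix Human Gene arrays. Judged by their range (1.24 to 14.92), the values the authors deposited are log2 signals, with 1 row per transcript cluster. The submitters' processing notes name GCRMA and limma, whose versions, order and roles are not given in the sources used here. No detection calls were used, and the number of arrays sets the precision.

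Of 32321 transcript clusters, 19158 had 1 gene symbol in the platform's probe table, 1388 had several and 11775 had none. Of the named ones, 19128 were matched to RefSeq (GRCh38.p14, names only). The cluster with the highest mean was kept for the 637 genes with several, which left 18404 genes. CBS shares a cluster with other symbols and was not used. Groups were compared with limma 3.58.1 in R 4.3.3 (statmod 1.5.0), with 1 mean per group, the array-median level as a fixed block, empirical Bayes moderation and Benjamini-Hochberg adjustment over all genes of a comparison. Genes were called at an adjusted p under 0.05. Intervals are 95% intervals from that fit. The scripts were tested on simulated data.

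Signals in every array are given for ATF4, ATF3, DDIT3, TRIB3, CHAC1, ASNS and the 3 called genes with the largest difference in each compound against DMSO, and CEBPB was added after its values were seen. Of each related list up to 4 called genes with the smallest adjusted p were named, and SLC43A1 was added to account for a count. Promoters shown are those of ASNS, DDIT3 and the 2 other genes with a TGATGNAA match and the smallest adjusted p. The 39 genes, their roles, the related lists and the level block were chosen with earlier results of these data known.

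The replicate numbers were checked as pairs by the correlation, across genes, of deviations from group means. For DFO and DMSO it was 0.945, 0.662, 0.738 and 0.788, and these numbers were used as pairs only in the alternatives with replicate blocks. The main fit had the level as its block, so DFO and DMSO arrays 2 and 3, all in the middle level, were not paired there. Same-numbered DFO and DMSO arrays lie in the same level, which the correlations above include. Deviations of differently numbered arrays of the same level were not correlated, so the check cannot separate pairing from level. For numbers 1 and 4, the only DFO and DMSO arrays of their levels, pairing and level cannot be told apart. For Deferasirox and DMSO the correlations were -0.058, 0.333 and -0.324, and for OICR623 and DMSO 0.291 and -0.009. Deferasirox 1 and 3 and OICR623 1 lie in another level than the DMSO array of their number. Only same-numbered arrays were correlated, and other ways to match them were not checked. In the order of the samples, OICR623 1 and Deferasirox 1 follow DMSO 2 and DFO 2. OICR623 2 and Deferasirox 2 likewise follow DMSO 3 and DFO 3, and Deferasirox 3 follows DMSO 4 and DFO 4. Arrays set together in this way share a level. The check thus cannot tell whether these experiments were paired, and their numbers were not taken as pairs. The alternatives were no block, median centring, quantile normalization, a random block, replicate blocks, the middle level alone, the 2 groups alone, a filter on dim genes, trended and robust moderation, the mean of a gene's clusters, each array left out and, chosen after the data were seen, the high level left out.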

Additional observations from a re-analysis of the deposited data

Results flagged for a closer look

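In 24 of 76 groups of 4 arrays (38 genes in DMSO and in DFO), 1 array stood apart from the other 3, with a gap to the nearest that passed Dixon's critical share of the group's range. Chance gives about 1 such group in 20 where no array is shifted as a whole. The medians of DMSO 1 and DFO 1 already set them above the other arrays, so the count of 24 cannot be held against that rate. All 24 arrays that stood apart were DMSO 1 (10 genes) or DFO 1 (14 genes), the 2 arrays of the high level, and in each case they were the highest.

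Among the stress factors, DFO 1 had a log2 signal of 8.53 for DDIT3, 8.24 for CHAC1 and 9.48 for CEBPB. DMSO 1 had 9.52 for STC2, and for PPP1R15A DMSO 1 had 10.21 and DFO 1 10.11. Among the synthesis genes, DFO 1 had 8.60 for ASNS. DMSO 1 and DFO 1 had 10.38 and 10.38 for PSAT1, 5.89 and 5.89 for ALDH1L2, and 9.64 and 9.62 for PCK2. Among the transporters, DFO 1 had 12.01 for SLC7A1, and SLC38A2 had 11.74 in DMSO 1 and 12.00 in DFO 1. Among the charging genes, AARS1 had 10.82 in DMSO 1 and EPRS1 11.04 in DFO 1. SARS1 had 11.23 in DMSO 1 and 11.17 in DFO 1, CARS1 8.94 and 8.99, and TARS1 11.18 and 11.17. For STC2 the other DMSO arrays lay between 8.29 and 8.47, and for SLC38A2 between 10.46 and 10.64.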

How the results depend on the processing

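The calls rest on the level block. With no level block 0 of the 38 genes were called under DFO, 0 under Deferasirox and 0 under OICR623. With median-centred arrays and no block the counts were 1, 0 and 0, and with quantile normalization 1, 0 and 0. The middle level alone gave 2 under DFO and 0 under OICR623, and the 2 groups alone gave 0 under OICR623. Leaving out the dimmest 25% of genes gave 5 under Deferasirox and 2 under OICR623, as did trended and robust moderation, which also called 1 gene for OICR623 against DFO. Without the high level, chosen after seeing the data, the counts were 5 under Deferasirox and 2 under OICR623. Leaving out 1 array gave 3 to 4 under DFO, 2 to 5 under Deferasirox and 0 to 2 under OICR623. With the replicate number as a block over all arrays the counts were 0, 0 and 0, and SLC38A2 under OICR623 changed sign to -0.0505 (adjusted p = 0.893). In that fit most Deferasirox and OICR623 numbers join a DMSO array of a different level, and they were not taken as pairs. With the replicate block over the 8 DFO and DMSO arrays alone the count was 4, and CEBPB alone lost its call. The cause of these changes was not tested. STC2 under DFO was called in 18 of 20 alternatives, SLC38A2 in 16, CTH in 15, DDIT3 in 8 and CEBPB in 7, with 1 sign throughout. Under Deferasirox STC2 and SLC38A2 were called in 14 of 18 and CTH in 5, and SLC38A2 under OICR623 in 9 of 17. ATF4 was called in none of them. With 2 OICR623 arrays, and signals with no measured background, small differences could not be told from 0.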

Other observations

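ATF4 has a second transcript cluster on the array, with a mean log2 signal of 10.27 beside 10.28 for the one used. Within levels its differences from DMSO ran from -0.02 to 0.06 over the 3 compounds, while those of the one used ran from -0.25 to 0.11. MTHFD2, a mitochondrial folate enzyme, also has a second cluster, at 10.81. Under Deferasirox that cluster lay 0.26 above DMSO in the middle level and 0.29 in the low level, and the cluster used lay 0.11 and 0.12 above. MTHFD2 was called higher under Deferasirox with trended and robust moderation and with the mean of both clusters. PSPH and SLC1A5 also have 2 clusters, with differences between -0.09 and 0.10 and between -0.06 and 0.02 for the ones not used.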
